A study of Mus musculus with 30 samples.

Results

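The Myc and Pvt1 domain was described here as a window of 1.9 Mb of mouse chromosome 15 in the mm9 build, chr15:61700000-63600000. Every region of the 8 deposited ChIP-seq peak lists that touched this window was taken, which gave 729 of 624912 regions. Myc lies in the interval chr15:61817000-61822000, and this interval with 2 kb on either side, chr15:61815000-61824000, is called the Myc zone. Distances are given from the start of the Myc interval at 61817000, with negative values upstream. The regions were chosen by position and not by any measured value.

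The lists come from 4 cell lines, with 1 list for each line and antibody. The region names of the Snf2h lists carry a replicate tag, and whether those lists pool libraries is not given in the sources used here. Snf2h was mapped in CH12, a mouse B lymphoma line, either wild type or with zinc fingers 9 to 11 of CTCF deleted on both alleles by Cas9 (the mutant). SMC1, RAD21 and SMC3, which are subunits of the cohesin ring, were mapped in NIH3T3, an immortalized mouse embryonic fibroblast line. These fibroblasts carried a CpG-free plasmid that expressed either beta-galactosidase (the empty-vector line) or BORIS (clone 2, a single clone). All chromatin was crosslinked with formaldehyde. The other 22 of the 30 samples of the series had no peak list and were not analysed here. Peak lists hold no expression values, so the labelled cell types were not checked against marker genes.

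Myc encodes a transcription factor that drives growth and cell division, and its expression is controlled by its own promoter and by enhancers scattered over a long stretch of flanking DNA. Pvt1 is the long non-coding RNA gene next to it; in tumours the pair is often amplified or rearranged together, and the Pvt1 promoter is known to compete with Myc for enhancers. Cohesin extrudes loops of chromatin and is held at sites where CTCF, the 11-zinc-finger insulator protein, is bound, so its peaks mark candidate loop anchors. BORIS, also named CTCFL, is the germline paralog of CTCF and binds many of the same motifs. Snf2h, the product of Smarca5, is an ISWI-type ATPase that slides nucleosomes and spaces them beside bound CTCF. In the RefSeq gene table of the newer GRCm38 build, Pvt1 is the next gene after Myc and Gsdmc is the next protein-coding gene, with 16 genes between Myc and Gsdmc. The table's build differs from that of the lists. Sites are therefore given by their mm9 position and distance and are not assigned to exons, introns or UTRs.

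The window held 23 of 17304 Snf2h regions in wild-type CH12 and 41 of 23870 in the mutant. In the empty-vector fibroblasts it held 128 of 106420 SMC1 regions, 97 of 84433 RAD21 regions and 129 of 100708 SMC3 regions. In the BORIS fibroblasts the counts were 104 of 102207 for SMC1, 91 of 82235 for RAD21 and 116 of 107735 for SMC3. In each of the 8 lists the window was more densely covered than the list's average over the genome. The density ranged from 12.1 regions per Mb against 6.56 for wild-type Snf2h to 67.9 against 38.1 for SMC3 in empty-vector cells. Chromosome 15 was itself denser than the genome in every list, and the window was denser than the chromosome in every list. The 2 were closest for SMC1 in BORIS cells, with 54.7 regions per Mb in the window against 50.7 for the chromosome. For Snf2h they were further apart, with 12.1 against 6.77 in wild type and 21.6 against 11.4 in the mutant. The median fold over background in the window was below the list's own median in all 8 lists, for instance 2.85 against 3.58 for wild-type Snf2h. For Snf2h the other measures went the other way. The median pileup in the window was 40 against 25 in the wild-type list and 49 against 23 in the mutant list, and the median −log10 q was 5.54 against 4.96 and 6.85 against 5.54. For cohesin the median −log10 q in the window was below that of the list in all 6 lists. With 1 list per group no difference below has a replicate check, and no p-value between groups was computed. Confidence intervals of 95% (exact Poisson for counts, Clopper-Pearson for shares) cover counting error only.

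**Figure D1:**
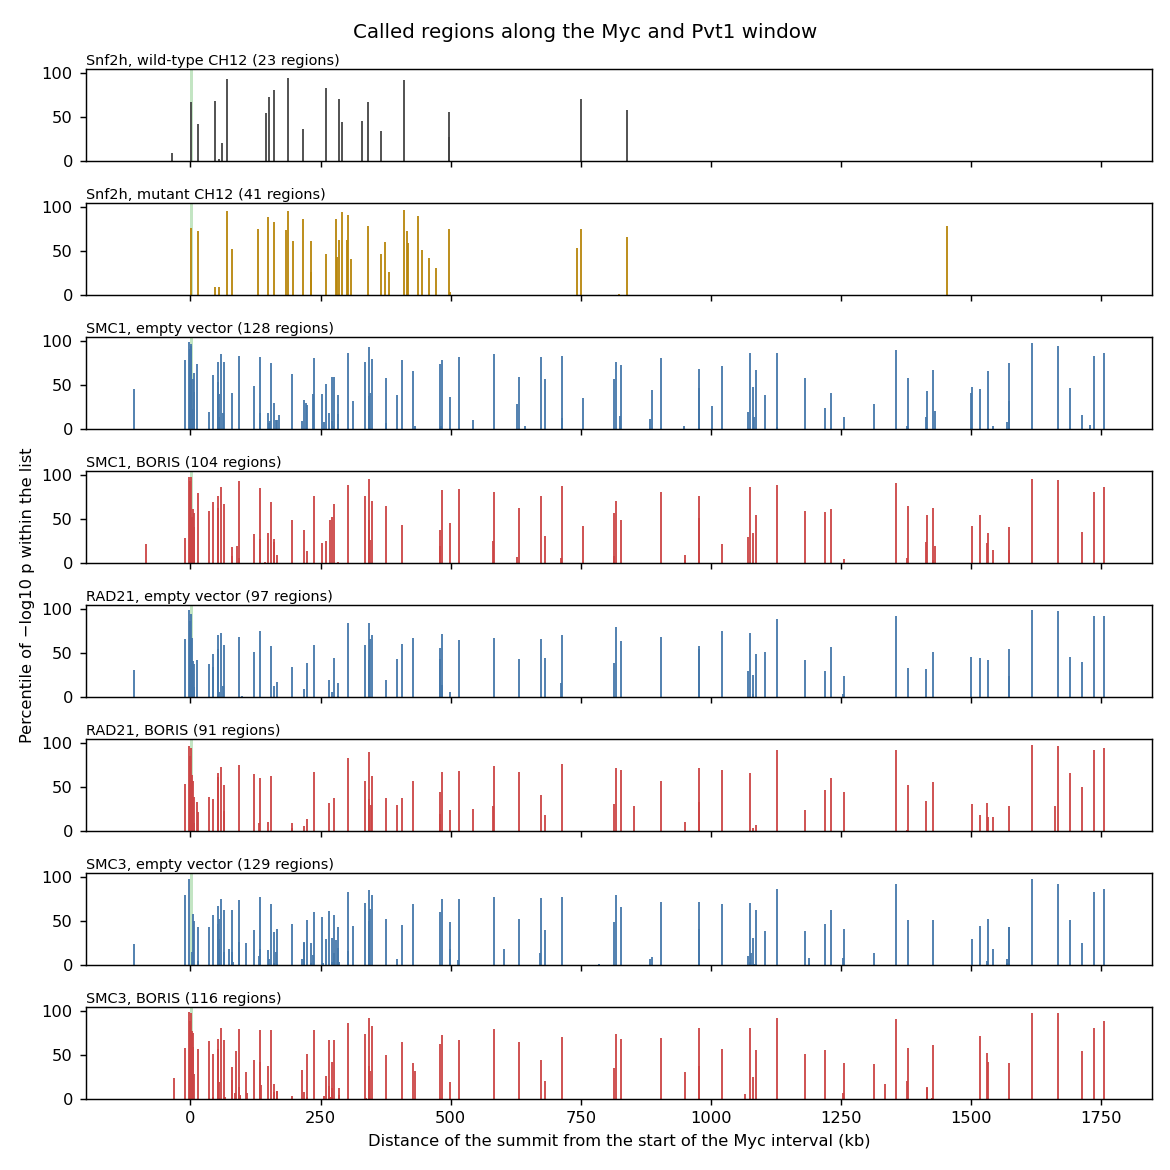
Each panel is 1 deposited list, each line a called region at the distance of its summit from the start of the Myc interval (kb), and its height the percentile of its −log10 p within that list. The green band is the Myc interval. Cohesin regions run through the whole window, whereas the 23 wild-type Snf2h regions end at 838.6 kb and the mutant list has 1 region beyond that point.

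At Myc itself, cohesin formed the block with the highest summit pileup of the window in each of the 6 lists. Regions of the 6 cohesin lists that overlapped or touched were merged. The merged region over the start of the Myc interval, chr15:61814507-61819994, was 5488 bp wide and was called in all 6 lists. Its lowest percentile in any list was 96.5, where a percentile gives the share of a list's regions with an equal or lower −log10 p. The summit pileup, the number of DNA fragments stacked at the summit with the highest −log10 p, reached 178 with the SMC1 antibody in empty-vector cells (95% interval 153 to 206). RAD21 reached 192 there (166 to 221) and SMC3 183 (157 to 212). In BORIS cells SMC1 reached 110 (90.4 to 133), RAD21 131 (110 to 155) and SMC3 159 (135 to 186). The fold over background ran from 25.4 for SMC1 in BORIS cells to 47.0 for RAD21 in empty-vector cells.

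Each called region has 1 deposited summit, and all cohesin lists but SMC3 of the empty-vector cells split the block into several regions. The lists do not give the shape of the signal. The upstream summit lay 2.0 kb before the start of the Myc interval. There the summits of all 6 cohesin lists fell between 61814970 and 61814997, a span of 27 bp. A second summit about 1.0 kb upstream was called in 5 lists within 26 bp, with folds from 18.7 to 27.8. The SMC3 list of the empty-vector cells had no summit there, since it called the whole block as 1 region of 5469 bp with its summit in the upstream cluster. A summit 0.150 kb inside the interval was called for SMC1 in empty-vector cells alone, with a pileup of 121. The other cohesin lists covered this position within wider regions whose summits lay elsewhere, so the call reflects how each list split the block.

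The third shared summit lay inside the interval, about 1.7 kb from its start, and it was the point at which Snf2h and cohesin met. Of the 8 lists, 7 had a summit between 61818616 and 61818701, a span of 85 bp. These were both Snf2h lists and the 5 cohesin lists other than SMC3 of the empty-vector cells. In empty-vector cells the SMC1 pileup at this point was 144 and that of RAD21 160. In BORIS cells SMC1 stood at 117, RAD21 at 125 and SMC3 at 156. The wild-type Snf2h summit was 2 bp from the SMC1 summit of the empty-vector cells and the mutant Snf2h summit was 85 bp from it, although the proteins were mapped in different cell lines.

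Snf2h at Myc was called once in each CH12 line and was of middling rank. With a −log10 q of 6.51 in wild type and 9.30 in the mutant, neither call was kept at a −log10 q of at least 10. The wild-type region, chr15:61818594-61818756, had a pileup of 46 (95% interval 33.7 to 61.4), a fold of 2.86 and a percentile of 67.4. The mutant region, chr15:61818484-61818787, had a pileup of 55 (41.4 to 71.6), a fold of 3.04 and a percentile of 75.8. The intervals of the pileups overlapped. Downstream of this summit, cohesin calls continued at lower strength. A summit 2.6 kb into the interval was shared by 3 lists with folds from 5.74 to 8.93. The other cohesin lists covered that position within wider regions whose summits lay elsewhere. A summit 4.0 to 4.5 kb in was shared by all 6 cohesin lists with folds from 3.40 to 9.54. Further summits, with folds from 3.26 to 8.16, reached out to 7.1 kb.

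**Figure D2:**
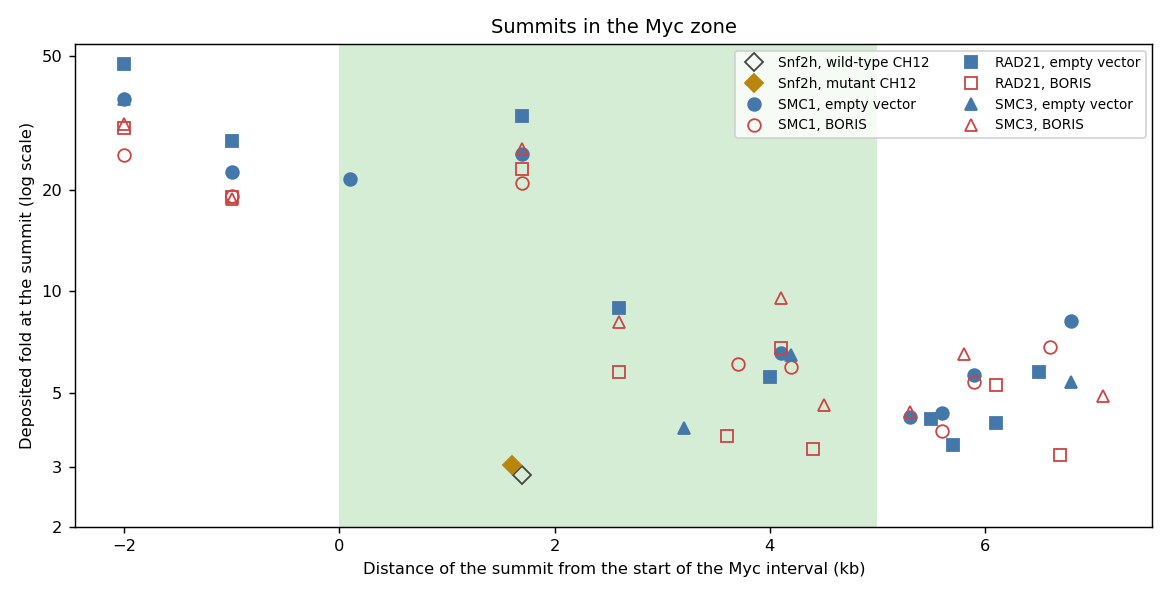
Points are the summits of called regions in the Myc zone by distance from the start of the Myc interval (kb) and deposited fold at the summit (log scale), with a marker for each list, and the green band is the Myc interval. Cohesin summits of high fold stack at −2.0, −1.0 and 1.7 kb, and both Snf2h summits, at folds of 2.86 and 3.04, lie at the last of these.

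Away from Myc, cohesin sites were spread along the whole window. The 6 lists merged into 178 regions, of which 63, or 35.4% (95% interval 28.4 to 42.9%), were called in all 6. Over all chromosomes this share was 34.5%. The 63 shared regions lay a median of 22.9 kb apart, against 16.7 kb for shared regions of the whole genome, and the widest gap, from 62530843 to 62630356, was 99.5 kb. The Myc zone held 3 of the 63. The first 300 kb downstream of the zone held 18 among 78 merged regions, 300 kb to 1 Mb held 22 among 45, and the stretch beyond 1 Mb held 19 among 47. Shared regions were thus 23.1% of the merged regions in the first 300 kb, 48.9% in the middle stretch and 40.4% in the far stretch.

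The near stretch was rich in calls made by a single list. Regions called in 1 list made up 66 of the 178, or 37.1% (95% interval 30.0 to 44.6%), against 25.3% over all chromosomes. Of these 66, 40 lay in the first 300 kb downstream. SMC3 supplied most of them, with 22 in empty-vector cells (12.4%, against 4.20% over all chromosomes) and 21 in BORIS cells (11.8%, against 6.26%). These SMC3 calls were weak, with a median percentile of 13.3 in the first list and 4.33 in the second. Calls by SMC1 of empty-vector cells alone numbered 14 (7.87%, against 7.17%).

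The shared regions were ordered by their lowest percentile in any of the 6 lists. Of the first 10, the Myc block led and 6 lay more than 1 Mb downstream. In the RAD21 lists alone Myc did not lead, with a percentile of 98.6 against 99.3 at 1616.2 kb in empty-vector cells and 96.5 against 98.2 in BORIS cells. The second was chr15:63432805-63433571, at 1616.2 kb. In empty-vector cells SMC1 had a pileup of 120 there, RAD21 one of 177 and SMC3 one of 144. In BORIS cells SMC1 had 75 fragments, RAD21 127 and SMC3 109. Its RAD21 fold of 67.6 in empty-vector cells was the highest fold of any region in the window. It was above the 47.0 of the Myc block, whose RAD21 summit lay upstream of the Myc interval. At 1616.2 kb no antibody's pileup exceeded that of the Myc block. Its fold was above that of the Myc block in all 6 lists, for instance 50.9 against 37.1 for SMC3 in empty-vector cells and 48.4 against 30.4 for RAD21 in BORIS cells. The third, chr15:63483621-63484618 at 1667.1 kb, had empty-vector pileups of 97, 163 and 109 in the same order of antibodies. The other 4 of the far sites were at 1355.1 kb (chr15:63171476-63172641), 1127.6 kb (chr15:62944295-62944950), 1755.4 kb (chr15:63572057-63572664) and 1736.4 kb (chr15:63553095-63553778). Nearer to Myc, the strong shared sites lay at 343.4 kb (chr15:62159688-62161107), 301.6 kb (chr15:62117895-62119342) and 58.4 kb (chr15:61875039-61875699). None of the 9 distal regions was overlapped by a wild-type Snf2h region, and 1 of them, at 301.6 kb, was overlapped in the mutant. Such overlaps were also few elsewhere. Over all chromosomes 4321 wild-type and 5591 mutant Snf2h regions overlapped any of the 51926 shared cohesin regions. The counts were therefore not read as a trait of these 9 sites.

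**Figure D3:**
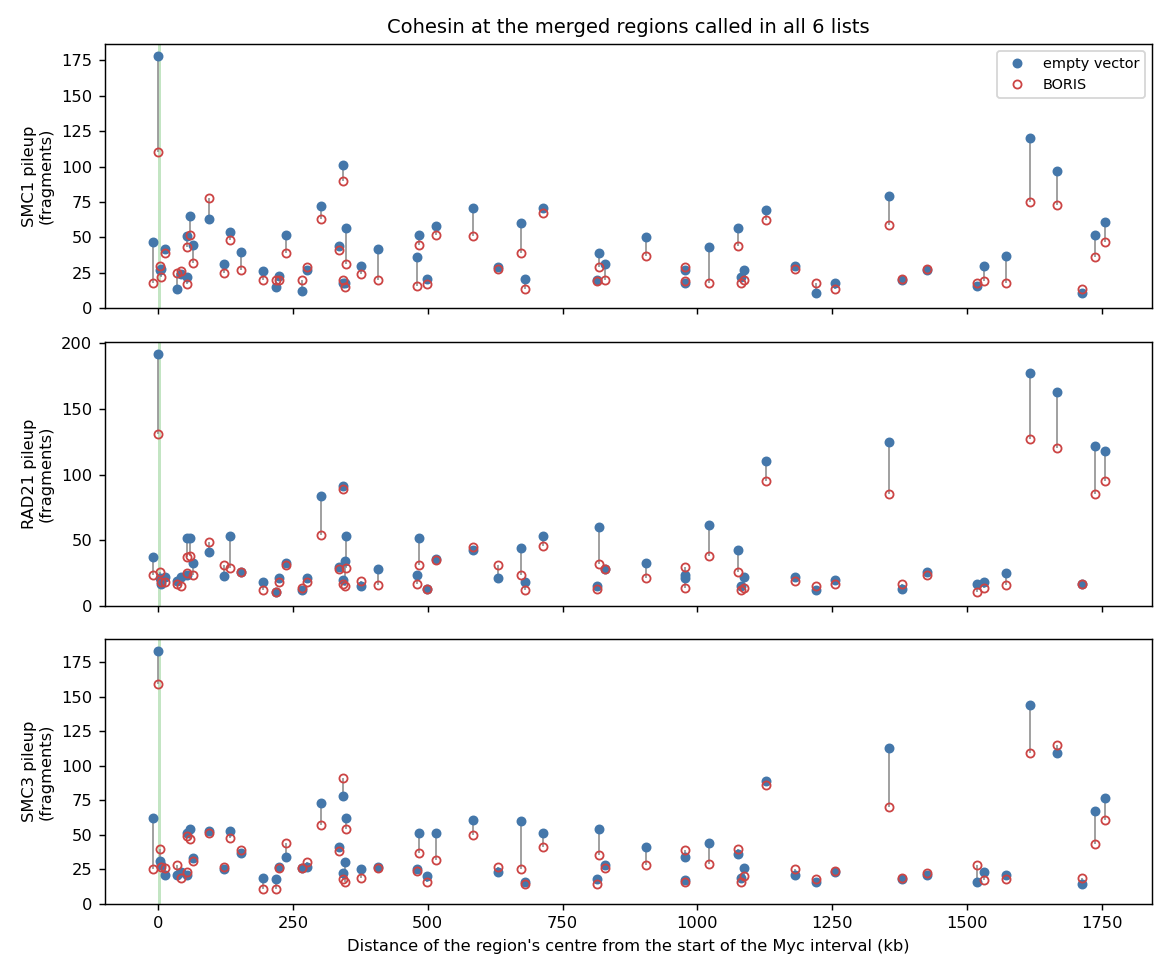
Summit pileup (fragments) of SMC1, RAD21 and SMC3 at the 63 merged regions called in all 6 lists, by distance of the region's centre from the start of the Myc interval (kb), with filled points for empty-vector cells, open points for BORIS cells and a line joining the pair. The Myc block stands highest with each antibody. High sites beyond 1 Mb are clearest in the RAD21 panel and also appear with SMC3 and SMC1, at empty-vector pileups up to 144 and 120.

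The balance of the antibodies differed between the strong far sites and the strong near sites. At the 6 far sites the RAD21 pileup was 1.48 to 2.35 times that of SMC1 in empty-vector cells and 1.44 to 2.36 times in BORIS cells. At the Myc block and the 3 nearer sites the ratio was 0.80 to 1.17 in empty-vector cells and 0.73 to 1.19 in BORIS cells. The ranges of these point values did not overlap in either line, but no counting interval was computed for them. The median of this ratio over the 51926 shared regions of the genome was 1.01 in empty-vector cells. These 10 sites were ranked by strength, and the pattern was noticed after their values were seen.

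Over the 63 shared regions the same ratio was less uniform. Centred on the genome-wide median, the log2 ratio of RAD21 to SMC1 in empty-vector cells had a median of −0.36 in the first 300 kb, −0.44 from 300 kb to 1 Mb and 0.11 beyond 1 Mb. In BORIS cells the medians were −0.48, −0.28 and −0.17. The far medians depended on the strength of the sites, and with regions of −log10 q of at least 10 they were 0.50 in empty-vector cells and 0.48 in BORIS cells. RAD21 was above the genome-wide balance at 11 of the 19 far regions in empty-vector cells and at 9 of 19 in BORIS cells, against 4 of 18 and 2 of 18 in the first 300 kb. The far regions other than the 6 strong ones lay on either side of the genome-wide balance.

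**Figure D4:**
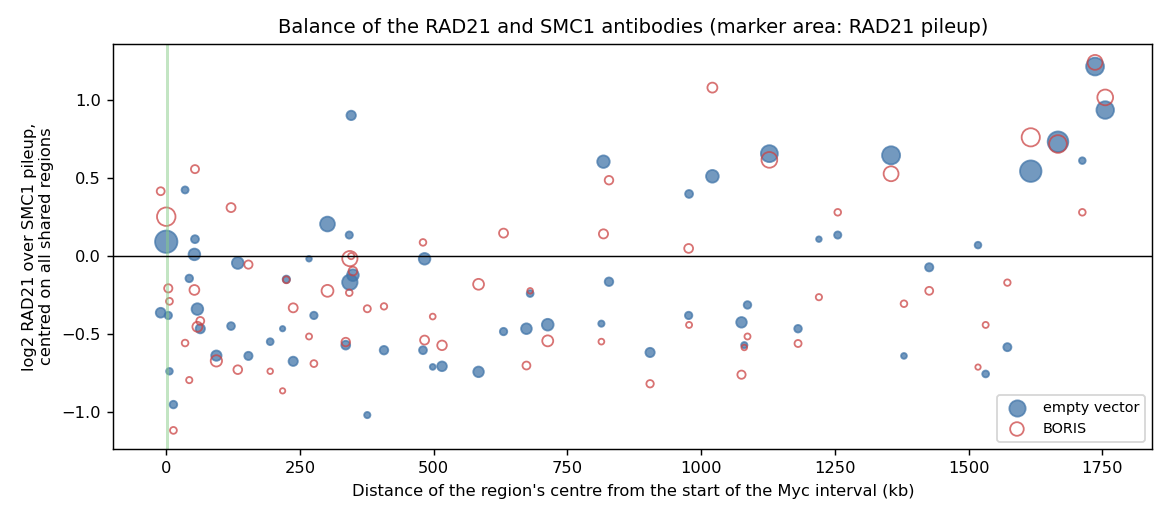
log2 ratio of RAD21 to SMC1 summit pileup at the 63 shared regions, centred on the median of all shared regions of the genome (line at 0), by distance of the region's centre from the start of the Myc interval (kb), with marker area in proportion to the RAD21 pileup, filled for empty-vector cells and open for BORIS cells. The 6 large markers beyond 1 Mb all lie above 0 in both lines, among small markers on either side of it.

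The comparison of BORIS with empty-vector fibroblasts asks what a clone expressing BORIS changes at cohesin sites. In this domain the set of sites called with every antibody in 1 line was small. No merged region of the 178 was called with all 3 antibodies in BORIS cells and with none in empty-vector cells, a count that leaves room for a share of at most 1.69% by a limit of 3 counts, or 2.05% by the Clopper-Pearson interval, where the share over all chromosomes was 2.41%. In the other direction 4 of 178, or 2.25% (95% interval 0.616 to 5.65%), were called in empty-vector cells with all 3 antibodies and in no BORIS list, against 1.61% over all chromosomes. Both counts depended on the lists and settings. The BORIS-only count was 2 without the SMC1 lists, 2 without the SMC3 lists and 2 with equal numbers of regions per list. The empty-vector-only count was 8 without SMC1, 13 without RAD21 and 0 at a −log10 q of at least 10, so neither share was read against its background.

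The 4 regions were weak. The strongest, chr15:62920761-62920950 at 1103.9 kb, had an SMC1 pileup of 15, a RAD21 pileup of 18 and an SMC3 pileup of 14. The others were chr15:61708382-61708796 at −108.4 kb, chr15:62100957-62101352 at 284.2 kb and chr15:62898693-62899021 at 1081.9 kb, with pileups from 10 to 18. Counting a call with any antibody, 49 merged regions (27.5%, against 18.6% over all chromosomes) were called in empty-vector cells and in no BORIS list. In BORIS cells alone there were 30 (16.9%, against 18.8%). Of the 49, 37 rested on 1 antibody, and of the 30, 29 did.

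At the 63 shared regions the pileups of the BORIS line were lower by about the same factor as in the rest of the genome. Centred on the genome-wide median of each antibody, the median log2 ratio of BORIS to empty-vector pileup was 0.05 with SMC1 and with RAD21, and 0.17 with SMC3. The RAD21 median changed sign, to −0.012 centred on chromosome 15 and to −0.047 at a −log10 q of at least 10. A region was counted as changed where the centred pileup differed by more than 1.5-fold in 1 direction with all 3 antibodies. None of the 63 was higher in BORIS cells by this rule, against 3.75% of all shared regions, and none was lower, against 2.31%. A count of 0 of 63 leaves room for a share of at most 4.76% by the same limit of 3 counts (Clopper-Pearson 5.69%), so shares of those sizes were not detectable at this number of regions.

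At the Myc block the centred log2 ratio of SMC1 was −0.34 (95% interval −0.69 to 0.01), that of RAD21 −0.21 (−0.55 to 0.11) and that of SMC3 0.08 (−0.24 to 0.39), and all 3 intervals included 0. The lowest mean ratio of the 63 was at the first shared site upstream of Myc, chr15:61806648-61806941 at −10.2 kb. There SMC1 had a pileup of 47 in empty-vector and 18 in BORIS cells, RAD21 37 and 24, and SMC3 62 and 25. The centred log2 ratio of SMC1 was −1.03 (−1.90 to −0.22), of RAD21 −0.29 (−1.09 to 0.49) and of SMC3 −1.03 (−1.76 to −0.34), so the interval for RAD21 included 0. The next lowest were at 673.5 kb, with a mean of −0.59, and at 1021.1 kb, with −0.53. The highest means, 0.73 at 1220.2 kb, 0.69 at 35.4 kb and 0.64 at 267.1 kb, came from small pileups of 11 to 28. These 6 regions were picked as the extremes of the ratio and are described without a test.

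The comparison of mutant with wild-type CH12 asks where Snf2h is called when CTCF lacks zinc fingers 9 to 11. In the domain, Snf2h regions of both lines were concentrated on the Myc side. Cohesin calls were also denser there, with 14.3 SMC1 regions per 100 kb in the first 300 kb and 4.64 beyond 1 Mb in empty-vector cells, but they continued to the end of the window. Of the 23 wild-type regions, 13 lay in the first 300 kb downstream of the Myc zone, 8 between 300 kb and 1 Mb and none farther. The last ended at 62655962, and the remaining 944 kb of the window had no wild-type call. In the mutant 21 lay in the first 300 kb, 18 between 300 kb and 1 Mb and 1 beyond 1 Mb, at 1453.2 kb (chr15:63270094-63270387), with a pileup of 25.

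The strongest wild-type regions were at 187.6 kb (chr15:62004480-62004727), 69.8 kb (chr15:61886609-61886959) and 410.2 kb (chr15:62226917-62227385), with pileups of 78, 62 and 58 and percentiles of 94.2, 93.3 and 91.8. The mutant list had a region at each of these 3 sites, with pileups of 98, 81 and 91 and percentiles of 95.7, 95.5 and 96.1. The 3 strongest wild-type sites were thus also the 3 strongest mutant sites by −log10 p, in a different order.

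Regions without an overlap in the other line were about as frequent here as in the whole lists, whose shares lay within the intervals. In wild type 6 of 23 regions, or 26.1% (95% interval 10.2 to 48.4%), had no overlapping mutant region, against 38.8% of the whole list. They lay at −35.6, 47.2, 61.0, 144.5, 329.3 and 365.7 kb, with pileups from 24 to 40. In the mutant 25 of 41 regions, or 61.0% (44.5 to 75.8%), had no overlapping wild-type region, against 56.1% of the whole list. Among these 25 the highest by −log10 p was at 302.1 kb (chr15:62118952-62119341), with a pileup of 103 and a percentile of 90.4. The next were at 436.5 kb (chr15:62253367-62253702), with a pileup of 58, and at 280.0 kb (chr15:62096823-62097357), with a pileup of 90. The site at 302.1 kb lies on the strong shared cohesin region at 301.6 kb.

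The 17 regions of wild type with a partner in the mutant formed 16 shared sites. Centred on the genome-wide median of shared sites, the log2 ratio of mutant to wild-type pileup had a median of 0.24 and was above 0 at 15 of the 16. With the deposited fold in place of the pileup, the median was −0.0847 and 6 of 16 were above 0, so the direction depended on the measure. Centred on the shared sites of chromosome 15 in place of the genome, the median by pileup was 0.12. By pileup, 3 of the 16 were more than 1.5-fold higher in the mutant, or 18.8% (95% interval 4.05 to 45.6%), against 8.78% of all shared sites and 17.0% of those on chromosome 15. None was more than 1.5-fold lower, against 6.65%, a share that 0 of 16 could not show, since it leaves room for up to 18.8% (Clopper-Pearson 20.6%). The 3 were at 291.5 kb (chr15:62108355-62108707, from 53 to 109 fragments), 410.2 kb (chr15:62226863-62227419, from 58 to 91) and 216.6 kb (chr15:62033452-62033757, from 31 to 49). Their centred log2 ratios were 0.98 (0.50 to 1.49), 0.59 (0.10 to 1.09) and 0.60 (−0.07 to 1.30), and the last interval included 0. By the deposited fold none of these 3 passed 1.5-fold, with centred log2 ratios of 0.46, 0.13 and 0.42. At Myc the ratio was 0.20 (−0.39 to 0.80).

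The remaining shared sites were within 1.5-fold by pileup. In the near stretch the pileup went from 35 in wild type to 42 in the mutant at 14.0 kb, from 30 to 35 at 54.0 kb, from 37 to 51 at 150.0 kb and from 46 to 52 at 160.0 kb. At 259.8 kb it went from 59 to 49, and this was the site of the 16 with a centred ratio below 0. At 286.1 kb the pileup went from 65 to 73 and at 340.7 kb from 55 to 79. Wild type had adjoining regions at 496.9 and 497.2 kb, with pileups of 38 and 43, where the mutant had 1 overlapping region with a pileup of 56. At the far end of the stretch with Snf2h calls in both lines the values were close, from 41 to 43 at 749.7 kb and from 37 to 39 at 838.6 kb.

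The local background moved with these values. The rate of background fragments against which each summit was called had a median of 12.8 in the window for wild-type Snf2h, 2.12 times the median of the whole list. In the mutant it was 15.4, which was 2.99 times the list's median. In wild type 21 of 23 regions, and in the mutant 40 of 41, were among the 10% of their list with the highest background. The exception in the mutant was the isolated region at 1453.2 kb, with a rate of 3.65. The background was highest between 280.0 and 340.7 kb. There it reached 25.9 in wild type, at 286.1 kb, and 33.9 in the mutant, at 301.5 kb. Relative to all shared sites, the background was higher in the mutant at 16 of 16 shared sites, with a centred median log2 ratio of 0.33. In the 6 cohesin lists the median background of the window was 1.23 to 1.39 times the list's median. The control used in calling is not given in the sources used here, and the part of the background in the Snf2h differences was not tested.

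**Figure D5:**
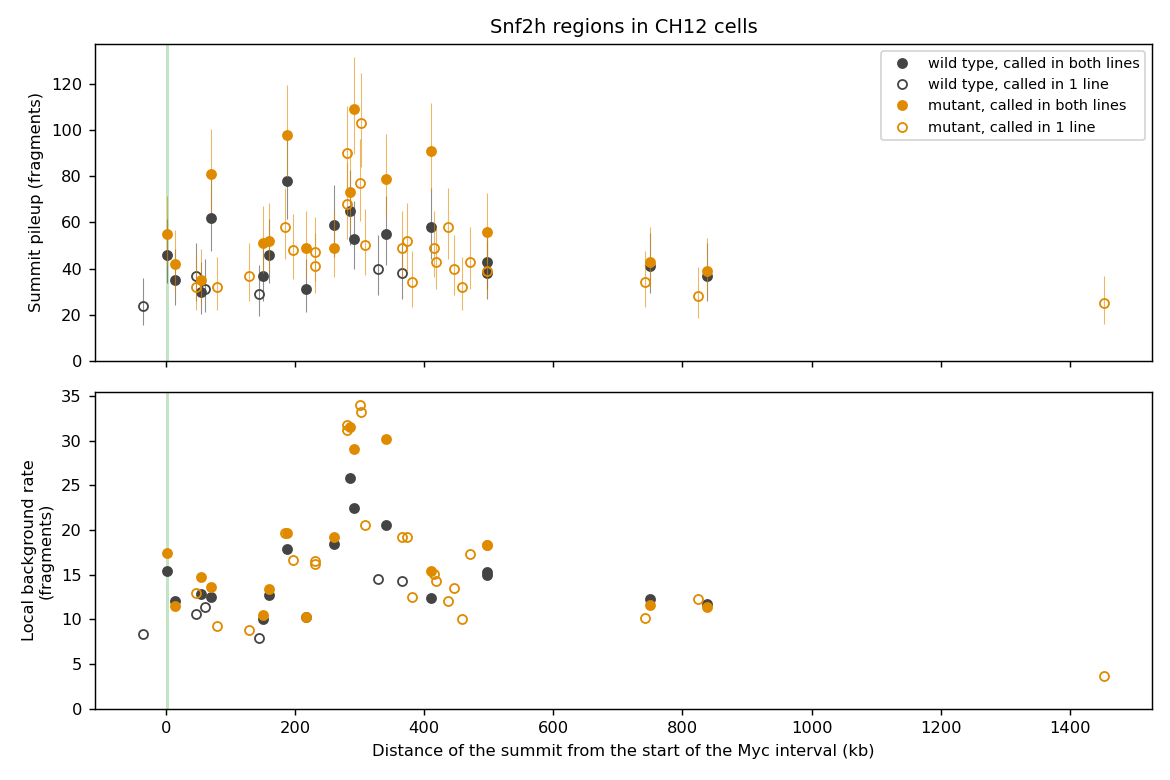
Summit pileup with its exact Poisson 95% interval (top, fragments) and local background rate (bottom, fragments) of the Snf2h regions in the window, by distance from the start of the Myc interval (kb), with filled points for regions called in both CH12 lines and open points for regions called in 1. The background peaks near 300 kb in both lines, at rates up to 33.9 in the mutant and 25.9 in wild type, and the highest pileup is 109 at 291.5 kb in the mutant and 78 at 187.6 kb in wild type.

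The overlap of Snf2h in CH12 with cohesin in NIH3T3 was counted over the whole window, the Myc zone included. Of the wild-type Snf2h regions 5 of 23, or 21.7% (95% interval 7.46 to 43.7%), overlapped a merged cohesin region, against 34.4% of the whole list. In the mutant 11 of 41, or 26.8% (14.2 to 42.9%), did so, also against 34.4%. Shared regions of all 6 cohesin lists were overlapped by 3 wild-type regions (13.0%, against 25.0% of the list) and by 5 mutant regions (12.2%, against 23.4%). The shares of the whole lists lay within the intervals, so the window did not stand apart from them beyond counting error. The closest summits outside the Myc zone were those of the mutant region at 498.2 kb, 3 bp from the nearest cohesin summit, and of the wild-type regions at 54.0 kb and 160.0 kb, 18 and 21 bp away. The mutant summit at 302.1 kb was 30 bp away. The strongest wild-type region, at 187.6 kb, had no cohesin summit within 6748 bp.

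The overlap of the 3 cohesin antibodies with each other varied by pair. Within a line, the share of 1 antibody's regions overlapped by another antibody's ranged from 62.1 to 95.9% over 12 ordered pairs. The median was 78.2% in the window and 80.4% over all chromosomes. RAD21, the antibody with the fewest regions, was the most covered. In empty-vector cells 93 of its 97 regions (95.9%, against 87.9% over all chromosomes) were overlapped by SMC3 and 92 (94.8%, against 87.8%) by SMC1. In BORIS cells the shares were 85.7% against 90.2% for SMC3 and 90.1% against 86.0% for SMC1. For the same antibody between the lines the shares ran from 65.1% for SMC3 of empty-vector cells to 89.4% for SMC1 of BORIS cells, with a median of 77.0% in the window and 76.6% over all chromosomes. These 2 pairs differed from their shares over all chromosomes in opposite directions, with 78.6% for SMC3 of empty-vector cells and 77.5% for SMC1 of BORIS cells.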

How the data were processed

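The 8 deposited lists are in the narrowPeak layout, and per the submitters' processing notes mm9, hg19, Bowtie, Bowtie2 (version 2), SAMtools, MACS2 and deepTools (3.5.0) were used, with no role or order given. The mouse build was taken as mm9, since regions on chromosome 1 reach 197182423, beyond the last GRCm38 gene at 195291439. Each region has, as deposited by the authors, a whole-number score, a fold over background (a ratio), −log10 p, −log10 q and a summit offset. The control, thresholds and any pooling of libraries are not given in the sources used here. The mitochondrial regions (2 in wild-type and 3 in mutant Snf2h) were left out. Read depth is unknown.

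Summit pileup P and background rate were solved from the fold, taken as (P + 1) / (rate + 1), and the Poisson −log10 p, and kept where a whole P fitted within 0.001. Overlap meant at least 1 bp, and the number of merged regions, 150690, was the same with bedtools 2.31.1. Other steps used Python 3.11.15, numpy 2.4.6, scipy 1.17.1 and pandas 2.3.3, and were tested on simulated data. Regions named were all those in the Myc zone, the 10 highest shared cohesin regions by their lowest percentile, up to 3 of the strongest in each line-specific class and 3 at each end of the ratio, plus all wild-type and the 10 highest mutant Snf2h regions. Other regions, including the fourth region specific to empty-vector cells, were chosen after their values were seen. The window, its members and the comparisons were chosen with earlier results of these data known.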

Additional observations from a re-analysis of the deposited data

How the results depend on the processing

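Of 88 alternatives tried over the counts and medians above, 60 were labelled as the same and 28 as moved, and the causes were not tested. The rule was a counting interval or 1.5 times. For medians the label did not follow the size of the move. RAD21 over SMC1 beyond 1 Mb in BORIS cells went from −0.17 to 0.48 and was among the 60. The Snf2h ratio, from 0.24 by pileup to −0.0847 by fold, was among the 28. The sign changed for 3 medians: Snf2h pileup by fold (below), RAD21 in BORIS over empty-vector cells, −0.012 centred on chromosome 15 and −0.047 at a −log10 q of at least 10, and RAD21 over SMC1 beyond 1 Mb in BORIS cells, 0.48 at that −log10 q. At a −log10 q of at least 10 (fewer regions by construction), Snf2h regions numbered 0 in wild type alone, 8 in the mutant alone and 3 of wild type in both, 0 wild-type and 1 mutant region overlapped cohesin, and the cohesin regions numbered 28 in all 6 lists and 0 in empty-vector cells alone. The cohesin regions of BORIS cells alone became 2 with equal numbers of regions per list, 1 with summits clustered within 200 bp, 2 without the SMC1 lists and 2 without the SMC3 lists. Those of empty-vector cells alone became 2 when no BORIS region was allowed within 1 kb, 8 without SMC1 and 13 without RAD21. With cohesin regions of all 6 lists the overlaps with Snf2h were 3 in wild type and 5 in the mutant, and with summits within 200 bp 3 in wild type. The median Snf2h log2 ratio was −0.0847 by fold, and the background ratio, taken relative to each list's lowest rate (added after seeing the data), was 0.51. Counts in the Myc zone moved under 9 of 24 alternatives. A distance of 1 kb gives no value for regions shared by lists. No paired analysis was possible because each group had 1 list. With 1 list per group and no read depth, the limits are those of the counting intervals.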
